A study of Mus musculus with 6 samples.

Results

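The mouse genes Flt1, Esam and Adgrf5, which are transcribed strongly in endothelial cells, and the neuropilin genes Nrp1 and Nrp2 were followed through RNA sequencing of mammary tumor cells. These 5 genes were chosen by name, and all 5 were found among the 10995 rows of the deposited count table. The tumors came from FVB/NJ mice that carry the PyVT transgene, the polyoma middle T oncogene driven in mammary epithelium by the MMTV promoter, and both groups carried it. The knockout group was Nr4a1-/- and its comparison group was wild type for Nr4a1, with 3 libraries in each and no drug named in the labels. The series text calls the mice age matched, while the sources used here state neither their ages, nor the disrupted part of the Nr4a1 allele, nor whether tumors were pooled. Nothing in the labels ties a library to an animal of its own, so every p measures no more than the scatter among the 6 libraries, part of which may be technical.

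Flt1 encodes VEGF receptor 1, which binds VEGF-A, VEGF-B and placental growth factor with high affinity and signals weakly, and which is also made as a soluble form that traps the ligand. Esam encodes an immunoglobulin-like adhesion molecule of endothelial tight junctions that is also present on platelets. Adgrf5 encodes an adhesion G protein-coupled receptor that is abundant in endothelium and in alveolar cells of the lung. Neuropilins are co-receptors that bind VEGF ligands beside the VEGF receptors and class 3 semaphorins beside plexins. Nrp1 is typical of arterial endothelium and Nrp2 of venous and lymphatic endothelium, and both are made by many carcinoma, smooth muscle, macrophage and neuronal cells as well.

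The RefSeq promoter windows (GRCm38.p6) of 4 of the genes are printed as a description, and a link between their letters and the levels was not tested. Each window has 300 bases around an annotated transcription start. Capitals mark GGAA on either strand (written TTCC where it lies on the other strand), the core letters bound by ETS factors, which many endothelial genes carry.
Adgrf5 promoter, chr17:43360181-43360480, plus strand: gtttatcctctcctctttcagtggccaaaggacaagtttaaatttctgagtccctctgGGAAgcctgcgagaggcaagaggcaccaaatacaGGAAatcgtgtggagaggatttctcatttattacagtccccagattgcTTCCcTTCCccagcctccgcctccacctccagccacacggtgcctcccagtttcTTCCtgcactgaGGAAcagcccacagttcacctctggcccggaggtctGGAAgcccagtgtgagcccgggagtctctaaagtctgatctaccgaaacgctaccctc
Flt1 promoter, chr5:147725962-147726261, minus strand: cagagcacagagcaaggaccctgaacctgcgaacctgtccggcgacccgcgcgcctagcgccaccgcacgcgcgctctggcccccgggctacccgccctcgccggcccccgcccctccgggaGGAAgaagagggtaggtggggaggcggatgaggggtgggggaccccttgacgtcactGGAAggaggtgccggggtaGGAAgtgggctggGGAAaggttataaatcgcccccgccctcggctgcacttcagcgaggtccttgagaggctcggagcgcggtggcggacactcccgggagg
Nrp1 promoter, chr8:128358823-128359122, plus strand: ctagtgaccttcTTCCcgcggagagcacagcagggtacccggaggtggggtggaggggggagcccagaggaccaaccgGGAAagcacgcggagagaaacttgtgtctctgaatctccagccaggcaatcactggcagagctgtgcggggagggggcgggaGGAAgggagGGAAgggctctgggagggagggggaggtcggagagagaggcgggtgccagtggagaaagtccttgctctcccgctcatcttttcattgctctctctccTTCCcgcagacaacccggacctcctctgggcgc
Nrp2 promoter, chr1:62703067-62703366, plus strand: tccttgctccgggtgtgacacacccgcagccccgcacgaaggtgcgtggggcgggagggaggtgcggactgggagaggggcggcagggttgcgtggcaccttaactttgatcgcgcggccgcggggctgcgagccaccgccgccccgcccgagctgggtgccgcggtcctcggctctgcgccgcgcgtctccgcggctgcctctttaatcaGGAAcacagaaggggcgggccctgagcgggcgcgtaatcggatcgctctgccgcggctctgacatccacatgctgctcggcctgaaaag
The printed Adgrf5 window held 7 such cores, the Nrp1 window 5, the Flt1 window 4 and the Nrp2 window 1. RefSeq gives Adgrf5 another start, whose window at chr17:43389216-43389515, not printed, held 5. Among all 32851 RefSeq windows, 8.02% held at least 7, 28.6% at least 5, 46.3% at least 4 and 96% at least 1, so of these counts the 7 at the first Adgrf5 start is the least common. Flt1 also held TGACGTCA, the cyclic AMP response element, at -81 from the start and TATAAA, the TATA box, at -31. Those letters occur on either strand in 1.79% and 13.6% of all windows. AAAGGTCA, the element bound by Nr4a1 as a monomer, occurs in 1.51% of all windows and was found in 0 of the printed windows. The GC box letters GGGCGG occurred 5 times in the Nrp2 window, 3 times in Flt1, 1 time in Nrp1 and 0 times in either Adgrf5 window, against 35.7% of windows with a match. A GATA site, AGATAA, stands in 11.2% of all windows and had 0 matches in these. The core of hypoxia response elements, ACGTG, stands in 19.6% of all windows and had 0 matches too. A match describes letters only and is no evidence of binding.

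Total counts were between 19569173 and 24188875 in the libraries labelled knockout and between 21221467 and 21637113 in those labelled wild type. Levels are given as CPM, each gene's count scaled by the size of its library after TMM correction. Wild type replicate 1 stood apart on the first principal component of log2 CPM, at 51.3 where the other libraries lay between -28.8 and 2.22. The Nr4a1 transcript itself averaged 32.8 CPM ± 6.70 in the libraries labelled knockout and 23.3 CPM ± 9.69 in those labelled wild type (SD, n = 3 each). It was therefore not lower with the knockout label, and since whole-gene counts need not cover the disrupted part of an allele, all groups are given here as labelled. In RNA taken from many cells at once, fewer cells of a type and less RNA per cell cannot be told apart.

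Mean levels of Adgrf5, Esam and Flt1 were higher with the knockout label, by 4.28-fold, 3.58-fold and 2.61-fold. Nrp1 stood 1.70-fold higher with wide spread, and Nrp2 had the same mean level with either label. The edgeR quasi-likelihood test called 0 of these 5 genes after Benjamini-Hochberg adjustment over all genes, as it did for 0% of all genes.

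Adgrf5 lies on chromosome 17, 43360451 to 43459557, plus strand (GRCm38, ENSMUSG00000056492.6), with up to 21 exons. It had 78.8, 99.1 and 46.9 CPM in knockout replicates 1, 2 and 3, against 11.4, 20.6 and 20.4 CPM in wild type replicates 1, 2 and 3. The lowest library labelled knockout lay well above the highest labelled wild type. The log2 fold change was 2.10 (SE 0.356, 95% interval 1.23 to 2.97, edgeR unadjusted p = 0.00110, adjusted p = 0.574), the value ranked 9 from the top among 10995 genes.

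Esam lies on chromosome 9, 37528078 to 37538319, plus strand (ENSMUSG00000001946.14), a short gene with up to 7 exons. Its level was 11.3, 17.8 and 10.7 CPM in the libraries labelled knockout, against 2.28, 4.59 and 4.24 CPM in those labelled wild type. The groups did not overlap here either, but the counts were low, at 275, 424 and 213 with the knockout label and 47, 100 and 90 with the wild type label. Every listed gene had a highest count of at least 133, so Esam reached that level only through the libraries labelled knockout. A gene at its wild type level in all libraries might have been absent from the table, and Esam is no independent sign of a direction. Its log2 fold change was 1.84 (SE 0.338, 95% interval 1.01 to 2.67, edgeR unadjusted p = 0.00155, adjusted p = 0.574).

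Flt1 lies on chromosome 5, 147561604 to 147726011, minus strand (ENSMUSG00000029648.13), with up to 30 exons. Its level was 64.1, 101 and 33.4 CPM in the libraries labelled knockout, against 14.5, 26.8 and 34.5 CPM in those labelled wild type. The groups overlapped, since knockout replicate 3 lay just under wild type replicate 3. Its log2 fold change was 1.39 (SE 0.483, 95% interval 0.20 to 2.57, edgeR unadjusted p = 0.0286, adjusted p = 0.574). Counts per gene do not separate the membrane-bound receptor from the soluble form, so which transcript carried the difference was not analysed here.

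At an unadjusted p under 0.05, edgeR gave 3 of the 5 genes, all higher with the knockout label, where it gave 3.7% of all genes in that direction and 7.88% of all genes, 866, in either. DESeq2 called Adgrf5 (log2 fold change 2.10, SE 0.356, adjusted p = 3.60e-06) and Esam (1.84, SE 0.370, adjusted p = 0.000312) but not Flt1 (adjusted p = 0.142), against 0.583% of all genes called higher. Limma-voom called 0% of all genes and gave these 3 an adjusted p of 0.593. The groups did not overlap, with the knockout label higher, for 2 of the 5 genes and for 8.39% of all genes. The 5 genes were chosen with earlier results of these data known, so their counts describe the genes and test nothing about them as a set.

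**Figure D1:**
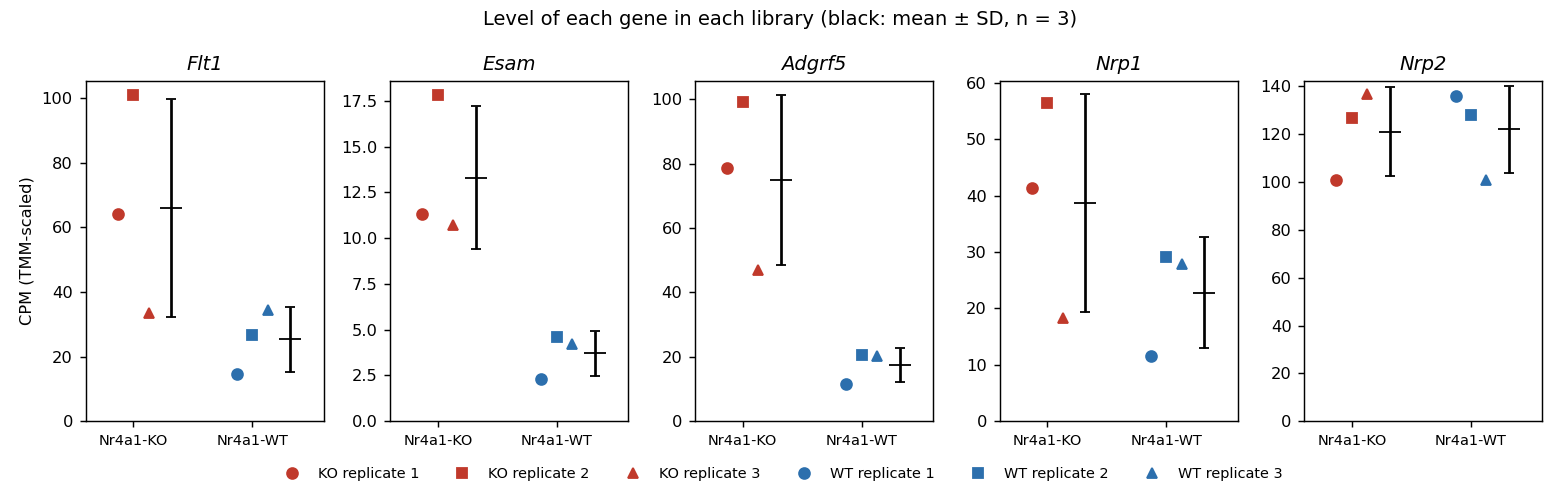
CPM of each gene (vertical axis, linear from 0, own scale per panel) in the 3 libraries labelled knockout, left, and the 3 labelled wild type, right, with the mean and SD in black. All Adgrf5 and Esam points labelled knockout lie above all points labelled wild type, Flt1 and Nrp1 overlap through knockout replicate 3, and Nrp2 spans 101 to 137 CPM against 101 to 136 CPM.

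The neuropilin genes did not vary alike. Nrp1, on chromosome 8, 128358604 to 128503363, plus strand (ENSMUSG00000025810.9), had 41.3, 56.5 and 18.3 CPM in the libraries labelled knockout, against 11.5, 29.2 and 27.8 CPM in those labelled wild type. Knockout replicate 3 thus fell inside the wild type range, and the libraries labelled knockout differed up to 3.09-fold among themselves. At 0.76, its log2 fold change did not pass (SE 0.511, 95% interval -0.49 to 2.01, edgeR adjusted p = 0.598). The interval reaches from a modest decrease to a large increase, so Nrp1 is not shown to be alike in the groups. The microRNA gene Mir1903 lies in Nrp1 and shares 80 exonic bases with it, and 1.38% of the 31-base words of the longest Nrp1 transcript occur in other genes.

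Nrp2, on chromosome 1, 62703285 to 62818695, plus strand (ENSMUSG00000025969.15), was the steadiest of the 5. It had 101, 127 and 137 CPM in the libraries labelled knockout, against 136, 128 and 101 CPM in those labelled wild type. The lowest and highest levels were nearly the same with either label, and the largest difference within a group was 1.36-fold. The log2 fold change was -0.0017 (SE 0.159, 95% interval -0.39 to 0.39, edgeR adjusted p = 0.998). Knockout replicate 3 and wild type replicate 1, the lowest libraries of their groups for Adgrf5, Esam, Flt1 and Nrp1, were the highest of their groups for Nrp2. The antisense gene Gm29083 lies within Nrp2 but shares 0 exonic bases with it, and 0.752% of the words of the longest Nrp2 transcript occur in other genes. Flt1 and Esam shared 0% and Adgrf5 0.106%.

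Because the counts of 2 genes in a library share that library's depth, their ratio does not depend on scaling. All 10 ratios among the 5 genes and the ratio of each gene to Eng were computed, 15 in all, after the levels had been seen. With 3 libraries a group, the two-sided exact permutation test cannot go below p = 0.1, so no ratio could pass at 0.05, and every adjusted p over the 15 was 0.188 or more. The values are therefore given as descriptions.

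Adgrf5 counts were 1.91, 1.75 and 2.57 times those of Nrp1 in the libraries labelled knockout, against 0.987, 0.706 and 0.736 times in those labelled wild type. The mean log2 ratio was 1.03 ± 0.29 with the knockout label and -0.32 ± 0.26 with the wild type label (SD, n = 3 each, exact permutation p = 0.1). This ratio kept the groups apart with much less spread than either gene's level had, and the difference of 1.36 in log2 stayed between 1.19 and 1.51 with each library left out in turn.

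Flt1 behaved in between. Its counts were 1.55, 1.78 and 1.83 times those of Nrp1 in the libraries labelled knockout, against 1.26, 0.917 and 1.24 times in those labelled wild type. Against Adgrf5 the order was the other way, at 0.813, 1.02 and 0.712 times with the knockout label and 1.28, 1.30 and 1.69 times with the wild type label. In each library Flt1 thus stood higher relative to Nrp1, and lower relative to Adgrf5, with the knockout label than in any library labelled wild type (exact permutation p = 0.1 for each ratio, log2 differences 0.61 and -0.75). The Esam to Adgrf5 ratio did not separate the groups, at 0.143, 0.179 and 0.229 with the knockout label and 0.200, 0.222 and 0.207 with the wild type label.

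Nrp2 counts were 2.44, 2.24 and 7.49 times those of Nrp1 in the libraries labelled knockout, against 11.8, 4.38 and 3.63 times in those labelled wild type. The balance of the neuropilins therefore varied widely within each label, and the groups overlapped. The mean log2 ratio was 1.78 ± 0.97 with the knockout label and 2.52 ± 0.91 with the wild type label (SD, n = 3 each, difference -0.73, two-sided exact permutation p = 0.50, where 0.1 is the smallest possible).

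**Figure D2:**
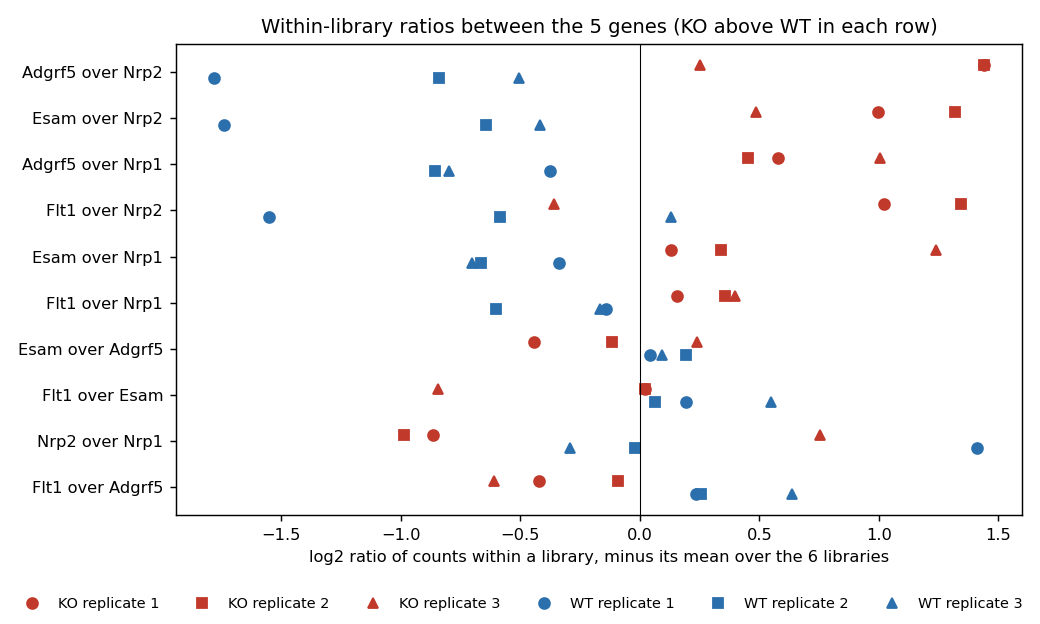
Log2 ratios of counts between pairs of the 5 genes within each library (horizontal axis, each ratio centred on its mean over the 6 libraries), with the libraries labelled knockout in red above those labelled wild type in blue. The colours do not overlap in 7 of the 10 ratios, and they overlap for Flt1 over Nrp2, Esam over Adgrf5 and Nrp2 over Nrp1.

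Levels of different genes were compared per kilobase of annotated exon (union of GENCODE M21 exons, 2.87 kb for Esam to 13.5 kb for Flt1). Nrp2 had the highest mean of the 5 in either group, at 10.3 CPM per kb ± 1.57 with the knockout label and 10.3 ± 1.55 with the wild type label (SD, n = 3 each). With the knockout label Adgrf5 came next at 8.32 ± 2.92 CPM per kb. Adgrf5 stood just above Nrp2 in knockout replicates 1 and 2, and under it in knockout replicate 3 (5.21 against 11.5 CPM per kb), so their order rests on that library. Flt1 (4.90 ± 2.50), Esam (4.63 ± 1.36) and Nrp1 (3.95 ± 1.97) followed, with ranges that overlapped across libraries. Within each library labelled knockout Flt1 lay above Nrp1, at 4.74 against 4.22, 7.47 against 5.78 and 2.47 against 1.87 CPM per kb. Esam lay under Nrp1 in knockout replicate 1 and above Flt1 in knockout replicate 3.

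With the wild type label the other 4 genes lay close together, far under Nrp2. Nrp1 had 2.33 ± 1.0 CPM per kb, Adgrf5 1.94 ± 0.586, Flt1 1.87 ± 0.747 and Esam 1.29 ± 0.434, with ranges that overlapped across libraries. Within each library labelled wild type, however, Nrp1 lay above Flt1 and Esam was the lowest of the 5. By mean, Nrp1 was thus second with the wild type label and last with the knockout label, an order within which neighbours overlapped across libraries. No source used here names the annotation behind the authors' counts, and other exon models would shift these per-kilobase levels.

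VEGF ligands and the other VEGF receptors did not pass in either direction, and neither did any other gene. Since edgeR called 0% of all genes, its 0 calls here and in the lists below are no trait of a list. Of 11 names on the list of ligands and receptors, 8 were in the table, and edgeR called 0 higher and 0 lower. Without the 3 members among them, 3 of 5 had a log2 fold change above 0, and the median was 0.22, where the median of all genes was -0.0024. That median was -0.081 without wild type replicate 1, and leaving out knockout replicate 1 gave 0.005. Kdr, which encodes VEGF receptor 2, and Vegfd were not among the listed genes and were not analysed here.

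Vegfa, the ligand shared by Flt1, Kdr and the neuropilins, was abundant, at 261 CPM ± 46.1 in the libraries labelled knockout and 216 CPM ± 9.0 in those labelled wild type (SD, n = 3 each). The fitted difference was small, a log2 fold change of 0.27 with SE 0.136 (edgeR adjusted p = 0.574). Pgf, placental growth factor, which binds Flt1 and not Kdr, averaged 29.6 CPM with the knockout label and 24.0 CPM with the wild type label. Vegfb, another ligand of Flt1, averaged 19.1 CPM with the knockout label and 22.2 CPM with the wild type label. These ligands overlapped between the groups. Vegfc, the lymphangiogenic ligand of Flt4 that also binds Nrp2, averaged 16.8 CPM ± 4.37 with the knockout label and 27.7 CPM ± 11.2 with the wild type label (SD, n = 3 each), a log2 fold change of -0.72 (SE 0.333, edgeR adjusted p = 0.574). Flt4 itself, VEGF receptor 3 of lymphatic endothelium, averaged 22.6 CPM with the knockout label and 19.5 CPM with the wild type label.

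Genes that carry the VEGF receptor signal showed small differences in mixed directions. Of 22 on the list, 17 were in the table, 9 above 0 and 8 below, with a median log2 fold change of 0.039 (-0.0096 without wild type replicate 1) and 0 called either way by edgeR. Rcan1, a calcineurin inhibitor induced by VEGF in endothelium, had the highest value, 36.9 CPM ± 1.52 with the knockout label and 29.7 CPM ± 1.68 with the wild type label (log2 fold change 0.31, SE 0.0814, edgeR adjusted p = 0.574). It was followed by the phosphatase gene Ptpn6 at 0.25. The lowest values were those of Sphk1, sphingosine kinase, at -0.46 and of the adaptor gene Shb at -0.24. Of the 17 genes, 2 lay wholly higher with the knockout label, Rcan1 among them, against 8.39% of all genes. Shb lay wholly lower, and the share of all genes wholly lower was not computed. The groups overlapped for Sphk1.

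Among class 3 semaphorins and plexins, the partners of neuropilins on the guidance side, the ligands had the lowest values. Of 14 on the list, 8 were in the table. Without the neuropilins 2 of 6 lay above 0 and 4 below, with a median log2 fold change of -0.14, and edgeR called 0. Leaving out wild type replicate 1 gave a median of -0.23, wild type replicate 2 gave -0.069 and knockout replicate 3 gave -0.093. Sema3c averaged 59.5 CPM ± 19.4 with the knockout label and 120 CPM ± 68.8 with the wild type label (log2 fold change -1.01, SE 0.448). Sema3f, a ligand of Nrp2 that opposes vessel growth, averaged 97.6 CPM ± 12.2 with the knockout label and 128 CPM ± 22.3 with the wild type label (-0.39, SE 0.153). Sema3f lay wholly lower with the knockout label, and the share of all genes that did so was not computed. Both Sema3c and Sema3f had an edgeR adjusted p of 0.574. Plxnd1, an endothelial plexin, had 0.42 and Plxna3 0.16, the highest of these 6.

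Those relatives of Esam and Adgrf5 that were in the table centred near 0. In the family of junctional adhesion molecules around Esam, 8 of 13 names were in the table. The 7 other than Esam had a median log2 fold change of -0.07, 2 above 0 and 5 below, and edgeR called 0. That median was 0.11 when knockout replicate 3 was left out and -0.18 when wild type replicate 3 was. The highest were Clmp at 0.73 (SE 0.465) and the scaffold gene Magi1 at 0.049, and the lowest were Cxadr, the coxsackievirus and adenovirus receptor of epithelial junctions, at -0.47 and Igsf5 at -0.24. Of 30 adhesion G protein-coupled receptors 15 were in the table, and Adgrl4, an endothelial marker, was not. The 14 other than Adgrf5 had a median of 0.037, 8 above 0 and 6 below, and edgeR called 0. That median was 0.13 without wild type replicate 2 and -0.044 without wild type replicate 3. Adgra2, a receptor that acts in brain vessel growth, had 0.73 (SE 0.534) and Adgrg2 0.61 (SE 0.181), and at the other end stood Celsr1, a planar polarity gene of epithelia, at -0.92 (SE 0.378) and Adgrl3 at -0.57 (SE 0.395).

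**Figure D3:**
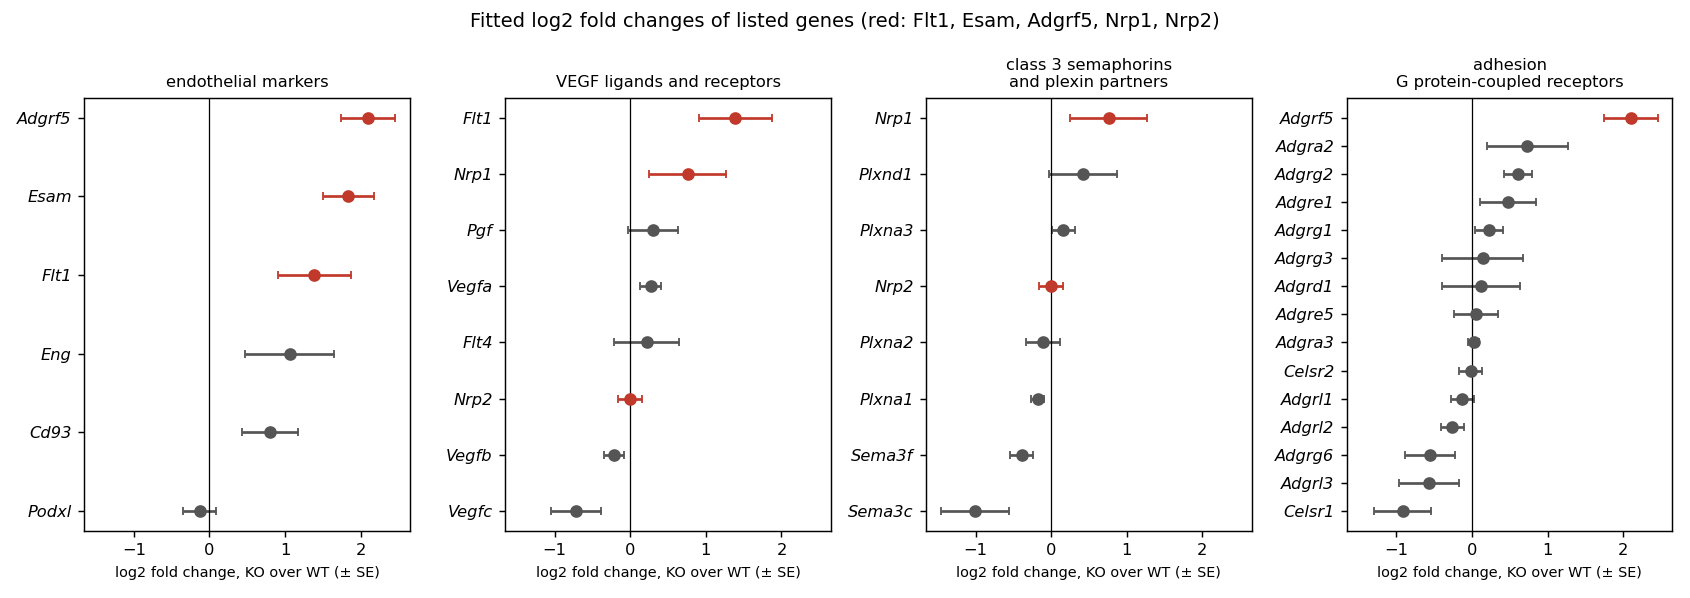
Fitted log2 fold change (knockout label over wild type label) with SE bars for the genes in the table from 4 lists, the 5 genes in red. Adgrf5 at 2.10 lies far to the right of the other adhesion receptors, which end at 0.73, and Nrp2 sits at 0 in both lists that hold it.

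Most genes that define endothelial cells could not be read beside these. Of 37 endothelial markers 6 were in the table, 3 of which are Flt1, Esam and Adgrf5. Pecam1, Cdh5, Kdr, Tek, Tie1, Emcn, Cldn5, Vwf, Plvap and Erg were not among the listed genes and were not analysed here. The other 3 were Eng, Cd93 and Podxl. Eng, endoglin, a TGF-beta co-receptor of endothelium also made by macrophages and stromal cells, had 55.0, 99.9 and 31.6 CPM with the knockout label, against 12.2, 42.6 and 34.7 CPM with the wild type label (log2 fold change 1.06, SE 0.583, edgeR adjusted p = 0.574). Cd93, a lectin-like receptor of endothelial and myeloid cells, averaged 13.1 CPM ± 2.16 with the knockout label and 7.52 CPM ± 3.60 with the wild type label (SD, n = 3 each). Podxl, podocalyxin, which tumor epithelium also makes, averaged 29.3 CPM ± 0.298 with the knockout label and 32.1 CPM ± 9.30 with the wild type label. All 3 overlapped between the groups. Their median log2 fold change was 0.80, 0.50 without wild type replicate 1 and 1.21 without wild type replicate 2.

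The Adgrf5 to Eng ratio kept the groups apart as well. Adgrf5 counts were 1.43, 0.992 and 1.49 times those of Eng with the knockout label, against 0.936, 0.485 and 0.588 times with the wild type label (log2 difference 0.99, exact permutation p = 0.1). Flt1 did not differ from Eng in this way, at 1.17, 1.01 and 1.06 times with the knockout label and 1.20, 0.629 and 0.995 times with the wild type label (log2 difference 0.24, exact permutation p = 0.60). The Flt1 to Eng difference was -0.020 to 0.44 with each library left out. Lymphatic markers in the table, of which there were 3 of 7 (Prox1, Flt4 and Pdpn), overlapped between the groups, with a median log2 fold change of 0.22 that was -0.081 without wild type replicate 1 and 0.73 without wild type replicate 2. Angiopoietin and Tie genes left Angptl2 (0.74, SE 0.403), Angptl4 (0.075, SE 0.468) and Svep1 (0.98, SE 0.460) in the table, of 9 on the list, and edgeR called 0 of these. Their median was 0.74, and 1.15 without wild type replicate 2.

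Markers of other stromal cells varied with these genes across the libraries, and their part in the differences was not tested. The 11 pericyte and smooth muscle markers in the table, of 14, summed to 1140 to 2350 CPM in the libraries labelled knockout and 583 to 1390 CPM in those labelled wild type. Their median log2 fold change was 0.82, 0.60 without knockout replicate 2 and 1.33 without wild type replicate 2, and knockout replicate 2 was the highest library and wild type replicate 1 the lowest, as for Flt1, Esam, Adgrf5 and Nrp1. The overlapping sums were led by Acta2, smooth muscle actin, at 542 to 1399 CPM with the knockout label and 154 to 785 CPM with the wild type label. The mean log2 CPM over the 11 genes did not overlap, at 5.60, 6.24 and 5.57 with the knockout label and 4.13, 5.27 and 4.68 with the wild type label. Single genes lay wholly higher with the knockout label for 5 of the 11 (Rgs5, Pdgfrb, Abcc9, Des and Myh11), against 8.39% of all genes. Of these 5, Rgs5 and Abcc9 reached a count of 133 only through the libraries labelled knockout. Log2 fold changes were above 0 for 9 of the 11 and below 0 for 2, Notch3 at -0.29 and Mcam at -0.01. Fibroblast markers (10 of 16) summed to 6320 to 11000 CPM with the knockout label and 3050 to 7190 CPM with the wild type label, with a median of 0.79, which was 0.50 without wild type replicate 1 and 1.21 without wild type replicate 2. Macrophage markers (12 of 16) summed to 1180 to 1350 CPM with the knockout label and 828 to 975 CPM with the wild type label, with a median of 0.82. Their mean log2 CPM over genes, in which Lyz2 and Cd14 do not dominate, overlapped, at 5.33, 5.39 and 4.77 with the knockout label and 4.25, 4.86 and 4.37 with the wild type label.

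Adipoq, Plin1 and most other adipocyte markers were not among the listed genes, and the 2 of 10 that were listed, Fabp4 and Lpl, are also made by capillary endothelium. They summed to 53.4 to 134 CPM with the knockout label and 11.6 to 21.5 CPM with the wild type label. Fabp4, with counts of 56, 93 and 52 with the wild type label, reached 133 only through the libraries labelled knockout. Neither the sum of these 2 genes nor their mean log2 CPM is thus an independent sign of a direction. Of 8 platelet and megakaryocyte markers, Pf4 and Itgb3 were listed, summed to 251 to 293 CPM with the knockout label and 115 to 302 CPM with the wild type label, and overlapped. Of 12 lymphocyte markers, 1 was listed, Ptprc of all leukocytes, at 10.3 to 11.3 CPM with the knockout label and 4.94 to 7.48 CPM with the wild type label. Luminal and general epithelial markers, all 15 listed, went the other way, at 4560 to 5710 CPM with the knockout label and 7120 to 8240 CPM with the wild type label (median log2 fold change -0.47). The sums did not overlap for the macrophage, adipocyte and epithelial markers or for Ptprc. By the mean log2 CPM over each list's genes, the adipocyte and epithelial markers were still apart, the fibroblast markers still overlapped, and the pericyte and macrophage markers read the other way round from their sums.

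EdgeR called 0 genes of any of these marker lists, while DESeq2 called 5 of them, named here after their values were seen. Called higher were 2 of 11 pericyte markers, 1 of 2 adipocyte markers and the 1 lymphocyte marker, against 0.583% of all genes. None were called higher among 10 fibroblast and 12 macrophage markers, and 1 of 15 epithelial markers was called lower. Rgs5, a regulator of G protein signalling typical of pericytes, had 13.3, 25.7 and 25.0 CPM with the knockout label, against 1.94, 5.41 and 2.40 CPM with the wild type label. Its DESeq2 log2 fold change of 2.71 (adjusted p = 7.44e-06) was above those of all 5 genes described here. The others called higher were Abcc9, a potassium channel subunit of pericytes and smooth muscle, (adjusted p = 0.021, edgeR log2 fold change 1.79), Fabp4, a fatty acid carrier, (adjusted p = 2.86e-16, DESeq2 log2 fold change 4.01) and Ptprc (adjusted p = 0.0297, 0.82). The epithelial keratin gene Krt7 was called lower, at -0.57 (adjusted p = 0.00532), where DESeq2 called 0.355% of all genes lower. The DESeq2 calls of Adgrf5 and Esam thus stood beside calls of mural, capillary or adipocyte, leukocyte and epithelial genes. Like Esam, however, Rgs5, Abcc9 and Fabp4 reached a count of 133 only through the libraries labelled knockout. Their highest counts with the wild type label were 118, 85 and 93, so they are no independent sign of a direction either.

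**Figure D4:**
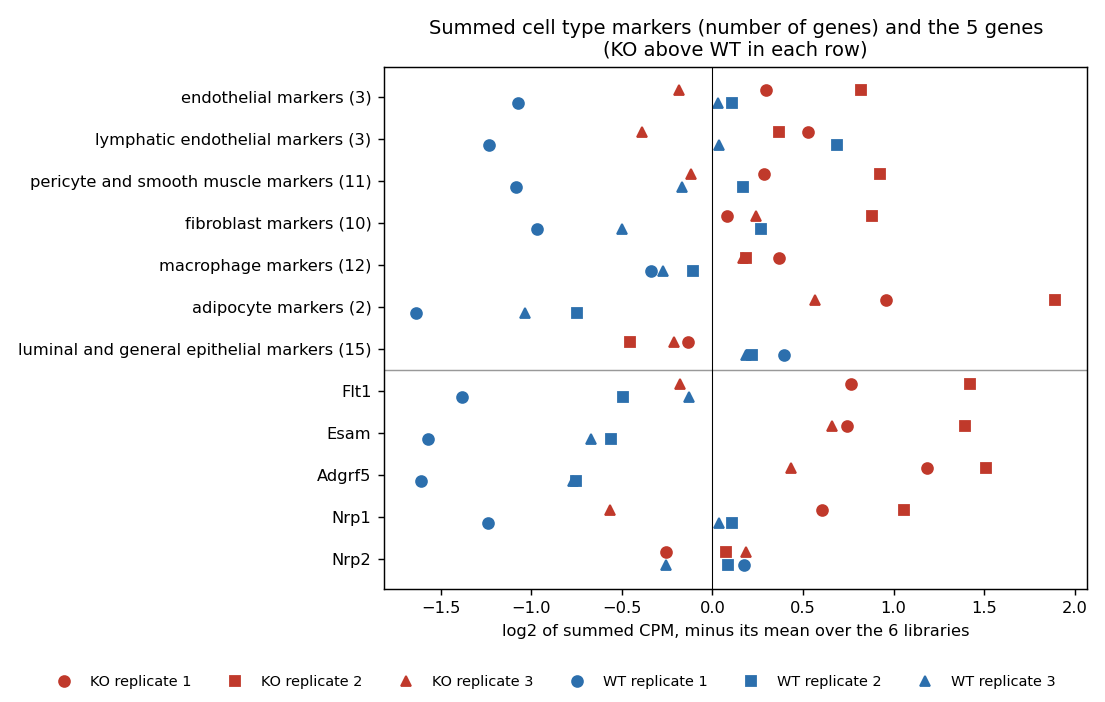
Log2 of summed CPM of marker lists (upper rows, with the number of genes, the 5 genes left out) and log2 CPM of the 5 genes (lower rows), each centred on its mean over the 6 libraries, libraries labelled knockout in red above those labelled wild type in blue. Wild type replicate 1 is the lowest library for every marker list shown except the epithelial one, and for Flt1, Esam, Adgrf5 and Nrp1. The epithelial markers run in the opposite direction.

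Among genes other than these 5, those with the closest patterns over the 6 libraries were found by the root mean square difference of centred log2 CPM, a distance that also reflects whatever the libraries share. For Esam they were Mylk (0.11), Itga1 (0.16), Gucy1a1 (0.21) and Apold1 (0.22). Mylk encodes myosin light chain kinase, Itga1 a collagen receptor and Gucy1a1 part of the soluble guanylate cyclase that senses nitric oxide. For Adgrf5 they were Mylk (0.20), Synpo2 (0.22), Gucy1a1 (0.23) and Rgs4 (0.25). Mylk stood at 52.1, 67.7 and 40.4 CPM with the knockout label, against 9.98, 19.0 and 19.4 CPM with the wild type label. It had the smallest distance to both genes, leaving out unnamed gene models. Gucy1a1 (1.45, 2.48 and 2.82 CPM) and Apold1 (2.18, 3.07 and 2.92 CPM) lay under Esam in every library labelled wild type. Like Esam, they thus reached a count of 133 only through the libraries labelled knockout. Their closeness to Esam, and that of Gucy1a1 to Adgrf5, is no independent sign of a direction.

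Flt1 was closest to Jph2 (0.22), Pla2r1 (0.23), Arhgdib (0.23) and Des (0.23), where Des encodes desmin of muscle and pericytes. Pla2r1, at 2.18, 3.49 and 3.91 CPM with the wild type label, lay under Esam there too. The same limit from the count of 133 holds for it. Nrp1 was much closer to its neighbours, Akap12 (0.073), Oas1a (0.077), Map6 (0.13) and Glipr1 (0.14). Akap12, a kinase anchoring scaffold, had 100, 136 and 41.3 CPM with the knockout label, against 26.1, 69.0 and 72.9 CPM with the wild type label. Nrp2 was close to genes that hardly varied, Snhg1 (0.033), Gps2 (0.037), Imp3 (0.042) and Armcx2 (0.055).

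Among themselves, Esam and Adgrf5 were the closest pair, at 0.23, each among the few nearest genes of the other (position 4 from Adgrf5 and position 6 from Esam among 10995). Flt1 lay nearest to Nrp1 at 0.35 and at 0.41 and 0.42 from Esam and Adgrf5. Nrp2 was the farthest from all the others, at 0.85 to 1.18. The sets of closest genes were a description of 6 libraries, and they say nothing of shared control.

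Leaving out single libraries moved the sizes more for Flt1 and Nrp1 than for Esam and Adgrf5. The log2 fold change of Adgrf5 lay between 1.85 and 2.35 and that of Esam between 1.57 and 2.02. That of Flt1 was 0.95 when knockout replicate 2 was left out and 1.71 when knockout replicate 3 was, and that of Nrp1 was 0.38 and 1.10 in the same repeats. Without wild type replicate 1, which stood apart, the values were 1.87 for Adgrf5, 1.59 for Esam, 1.11 for Flt1 and 0.44 for Nrp1. DESeq2 called Esam and Adgrf5 in all 6 of these repeats, with adjusted p up to 0.0234 for Esam and 0.00227 for Adgrf5. It called Flt1 in 1 of them, without knockout replicate 3 (adjusted p = 0.00956), and gave it 0.954 without knockout replicate 2. EdgeR adjusted p stayed at 0.351 or more for Esam and Adgrf5 in the same repeats. Esam reached a count of 133 only through the libraries labelled knockout, and leaving out a library does not undo that. Its steady direction and calls in these repeats are therefore no independent sign.

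**Figure D5:**
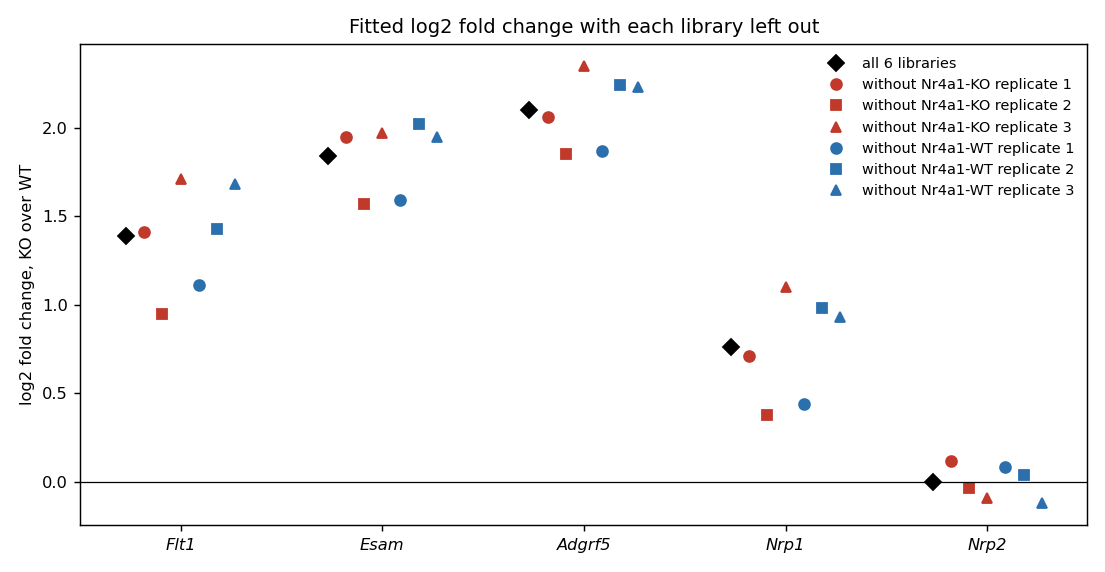
Fitted log2 fold change of each gene (knockout label over wild type label) from all 6 libraries (black diamond) and with each library left out (red for knockout, blue for wild type, marker shape for the replicate). Adgrf5 and Esam stay at 1.57 or above in every repeat, Nrp1 drops to 0.38 without knockout replicate 2, and Nrp2 lies on both sides of 0. Esam reached a count of 133 only through the libraries labelled knockout, which the repeats do not undo.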

How the data were processed

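The deposited table holds unnormalized read counts by gene symbol, made by the authors, in 6 library columns. CASAVA 1.8, HISAT2, featureCounts and the build GRCm38 (mm10) are named in the submitters' processing notes. The sources used here state neither the strand setting, nor the annotation release, nor the rule that removed low genes. The main test was edgeR 4.0.16 under R 4.3.3 (filterByExpr, which removed 0 genes, TMM, robust quasi-likelihood F test, group as the only term, Benjamini-Hochberg adjustment over 10995 genes at 0.05). CPM values use TMM-scaled library sizes, log2 CPM used a prior count of 2, and log2 fold changes are knockout over wild type. DESeq2 1.42.0 and limma-voom (limma 3.58.1) were alternatives. The members and lists were chosen with earlier results of these data known. Named genes were the 5 members, all genes of pathway lists with at most 5 other listed genes, otherwise the 2 highest and 2 lowest by log2 fold change, every listed endothelial marker, and the 4 closest patterns per member, leaving out the members and unnamed gene models. Other marker lists were given by their levels, with genes named beyond the 2 most abundant chosen after their values were seen. The within-library ratios other than Nrp2 to Nrp1 and the motifs were chosen after values or sequences were seen. Coordinates and exon lengths come from GENCODE M21 and shared words were counted with Python 3.11.15.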

Additional observations from a re-analysis of the deposited data

How the results depend on the processing

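Directions of Flt1, Esam, Adgrf5 and Nrp1 were the same under median-of-ratios scaling, library size alone, either filter, the other tests, the replicate block and each library left out. For Esam none of these settings undoes that it reached a count of 133 only through the libraries labelled knockout. DESeq2 called 103 genes where edgeR called 0, among them Esam at 1.84 and Adgrf5 at 2.10. Its own calls among the 5 genes with a library left out, an alternative chosen after seeing the data, were 2 to 3. Nrp2 reversed to 0.025 with library size alone, and lay between -0.12 and 0.12 with a library left out, which moved the edgeR calls between 0 and 2. With a library left out, list medians lay between -0.081 and 0.28 for VEGF ligands and receptors, -0.23 and -0.069 for semaphorins and plexins, -0.18 and 0.11 for the Esam family, 0.58 and 1.15 for angiopoietin and Tie genes, and 0.60 and 1.33 for pericyte markers. They lay between 0.50 and 1.21 for the other endothelial markers and for fibroblast markers. The cause was not tested. The labels do not say whether equal replicate numbers pair the libraries. Deviations from the group means correlated at -0.11, 0.35 and -0.25 for numbers 1, 2 and 3, and knockout replicates 1 and 3 correlated best with another number. With 3 libraries a group, whose deviations depend on each other, these correlations cannot exclude a pairing. With the replicate number as a block, edgeR called 0 genes, with log2 fold changes of 2.08 for Adgrf5, 1.86 for Esam, 1.36 for Flt1, 0.74 for Nrp1 and -0.0022 for Nrp2. The block left the Nrp2 to Nrp1 difference at -0.73 (exact sign-flip permutation p = 0.75, smallest possible 0.25). That difference lay between -1.29 and -0.21 with a library left out. Esam had the lowest counts of the 5 genes, and how far counting error adds to its spread was not tested.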
